A study of Homo sapiens with 66 samples.

Results

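The transcripts of 10 genes for death receptors, their ligands and an inhibitor of their signal were followed in 11 acute myeloid leukemia (AML) cell lines with and without etoposide, a drug that traps topoisomerase II on broken DNA. The genes were taken by symbol out of 57992 genes with counts, and all 10 were found. They are the ligands FASLG and TNFSF10 (TRAIL), the receptors FAS, TNFRSF10A, TNFRSF10B, TNFRSF1A, TNFRSF1B, TNFRSF10C and TNFRSF10D, and the inhibitor CFLAR (c-FLIP). The cell lines were THP-1, OCI-AML3, OCI-AML2, NOMO-1, NB-4, MV-4-11, MONO-MAC-6, MOLM-13, KASUMI-1, HL-60 and F-36P, which the sample labels write without hyphens. Each line was sequenced untreated and after 24 h of etoposide, with 3 libraries per group and 66 in all, and the RNA of a library came from 3 pooled wells. Etoposide was given at a concentration specific to each line, its IC50, so that cell line and concentration cannot be told apart where responses are compared between lines. The study discarded its etoposide-treated OCI-AML2 libraries for the quality of their raw reads, and they are described apart from the other 10 lines. The study's methods call its replicates biological unless stated otherwise, while the labels do not say that the 3 libraries of a group came from separate cultures. The p-values measure the spread between these libraries, except those of the mean response over lines, which measure the spread between the 10 lines.

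Death receptors are surface proteins of the TNF receptor superfamily whose cytoplasmic death domain recruits adaptors and initiator caspases once a trimeric ligand binds. FAS binds FASLG, TNFRSF10A and TNFRSF10B bind TRAIL, and TNFRSF1A binds TNF. TNFRSF10C, which has no cytoplasmic domain, and TNFRSF10D, whose death domain is truncated, bind TRAIL without passing on the death signal and are called decoy receptors. TNFRSF1B binds TNF but has no death domain, and CFLAR, an inactive relative of caspase 8, competes for the adaptor FADD. FAS and TNFRSF10B are known targets of p53, while TNFSF10 is known to be raised by interferons.

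The libraries held 17997404 to 24101670 reads on genes (median 20241014). Levels are given as CPM, read counts scaled to TMM-normalized library sizes. All 7 leukocyte and myeloid markers checked, PTPRC, SPI1, CD33, MPO, CEBPA, CSF1R and LYZ, had reads in both groups of each line. Erythroid markers were highest in F-36P, where their summed level was 5690 to 7543 CPM untreated and 4047 to 4491 CPM after etoposide. In bulk RNA, fewer cells with a transcript and less of it per cell cannot be told apart.

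Of the 10 genes, 6 had a promoter window in the RefSeq table for GRCh38.p14, which gives 250 bases before and 50 after a transcription start. Windows of 3 genes with induced transcripts are shown, 5′ to 3′ on the gene's strand, with matches to 3 motifs in capitals. The FAS window, at chr10:88990548-88990847 on the plus strand, is at the start of the MANE Select transcript, inside the span that gencode gives the gene. TNFSF10 is at chr3:172523381-172523680 on the minus strand and TNFRSF1B at chr1:12166741-12167040 on the plus strand.
FAS: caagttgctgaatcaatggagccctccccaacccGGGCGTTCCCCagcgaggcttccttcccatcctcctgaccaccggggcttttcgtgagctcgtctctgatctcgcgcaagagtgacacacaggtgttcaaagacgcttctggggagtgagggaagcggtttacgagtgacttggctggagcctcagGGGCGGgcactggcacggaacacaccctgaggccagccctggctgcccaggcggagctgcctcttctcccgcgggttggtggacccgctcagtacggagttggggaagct
TNFSF10: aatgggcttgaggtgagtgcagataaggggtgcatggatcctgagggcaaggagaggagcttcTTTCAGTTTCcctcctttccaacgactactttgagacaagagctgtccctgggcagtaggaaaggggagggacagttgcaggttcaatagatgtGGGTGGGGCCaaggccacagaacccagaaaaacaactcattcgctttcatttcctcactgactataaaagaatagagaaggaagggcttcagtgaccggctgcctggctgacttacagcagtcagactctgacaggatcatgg
TNFRSF1B: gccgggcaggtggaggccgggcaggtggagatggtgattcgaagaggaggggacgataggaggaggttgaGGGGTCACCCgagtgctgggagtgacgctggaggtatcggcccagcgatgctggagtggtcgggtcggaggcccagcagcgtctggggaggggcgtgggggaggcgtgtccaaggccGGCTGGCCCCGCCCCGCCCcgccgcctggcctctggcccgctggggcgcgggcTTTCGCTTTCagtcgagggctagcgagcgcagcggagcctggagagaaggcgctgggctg
The motifs were searched on both strands. The interferon-stimulated response element core (GAAA, any 2 bases, GAAA) was found once in TNFSF10 and once in TNFRSF1B, and in 3.57% of the 35116 windows of the table. The NF-kB pattern (GGG, any 5 bases, CC) was found in FAS, TNFSF10 and TNFRSF1B and in 58.7% of all windows, and the GC box GGGCGG in FAS and TNFRSF1B and in 45%. In the TNFRSF1B window, GC boxes and NF-kB matches overlap each other. A full p53 element was in none of these windows and in 0.0285% of all. A match describes letters in the window and not a bound site.

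In untreated cells the 9 genes with enough reads to test all differed between the 11 lines (edgeR quasi-likelihood F test, adjusted p from 9.52e-30 for TNFRSF10B to 1.24e-15 for TNFRSF10C), as did 99.4% of all 18130 genes tested. FASLG, which is made mainly by activated lymphocytes, was too low to test. Levels in untreated lines are given as CPM normalized over the 33 untreated libraries, as mean ± SD of 3 libraries. A pair of lines was said to differ at an adjusted p below 0.05 over all genes and all 55 pairs, which 66.9% of all gene and pair tests reached.

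**Figure D1:**
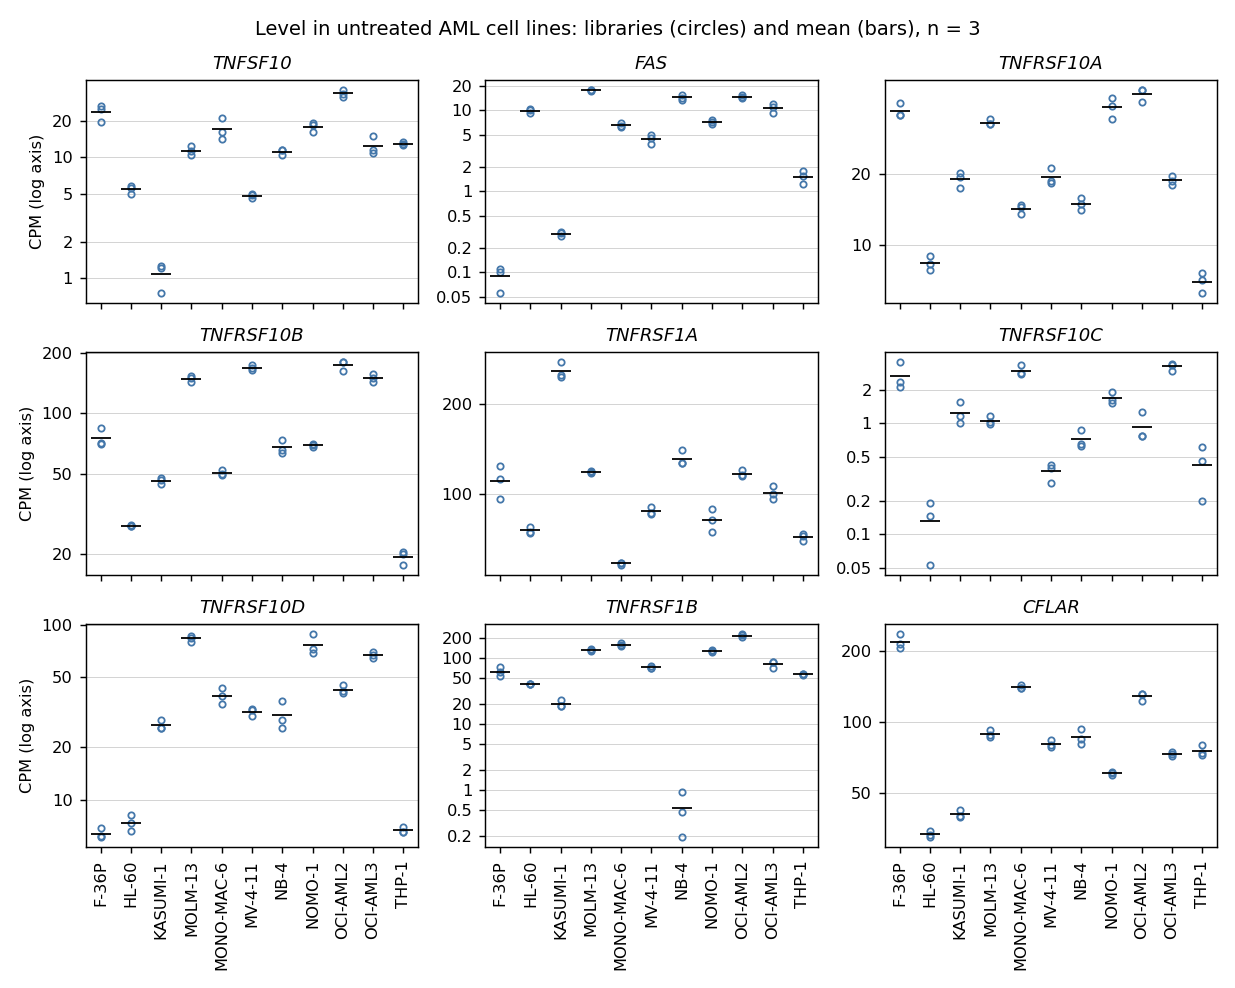
Level of 9 genes in untreated cells of 11 AML cell lines, in CPM on a log axis, with 3 libraries (circles) and their mean (bar) per line. FAS spans 0.0886 to 17.7 CPM, TNFRSF1B is at 0.528 CPM in NB-4 and at 20.2 CPM or more elsewhere, and KASUMI-1 stands at the top for TNFRSF1A and at the bottom for TNFSF10.

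FASLG (chr1:172659103-172666876) held 60 reads over all 66 libraries. In untreated NOMO-1 its 3 libraries held 11, 2 and 2 reads, with 1 read in untreated F-36P, 1 in HL-60 and 0 in the other 8 lines. With 0 reads in 3 libraries, a level of up to 0.0462 to 0.0535 CPM is possible, depending on the line. NOMO-1 was also the line with the highest T cell markers. Of 5, 4 had reads in untreated NOMO-1, with a summed level of 172 to 201 CPM, CD3D at 174 CPM, CD3E at 3.69 CPM and CD8A at 0, and their part in the FASLG reads was not tested.

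TNFSF10 (chr3:172505508-172523475), the TRAIL ligand, was highest in OCI-AML2 at 33.4 ± 2.18 CPM and second in F-36P at 23.4 ± 3.72 CPM, and these neighbours differed (adjusted p = 0.000401). NOMO-1 (17.8 CPM) and MONO-MAC-6 (17.03 CPM) did not differ beyond their spread, nor did THP-1, OCI-AML3, MOLM-13 and NB-4 from their neighbours between 12.9 and 11.1 CPM. The lowest line was KASUMI-1, whose libraries held 0.761, 1.26 and 1.22 CPM, 31.0-fold below OCI-AML2 and below its neighbour MV-4-11 (4.81 CPM, adjusted p = 9.4e-11).

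FAS (chr10:88953813-89029605) had the widest range of the death-domain receptors. It was highest in MOLM-13 at 17.7 ± 0.313 CPM, followed by OCI-AML2 (14.8 CPM) and NB-4 (14.4 CPM), which did not differ (adjusted p = 0.791). THP-1 was at 1.52 ± 0.284 CPM and KASUMI-1 at 0.298 ± 0.0194 CPM. In F-36P the 3 libraries held only 1, 2 and 2 reads, a mean of 0.0886 CPM. Of the 55 pairs of lines, 52 differed in FAS.

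TNFRSF10A and TNFRSF10B, the TRAIL receptors with a death domain, lie with both decoy receptors in a cluster on chromosome 8 (23020133 to 23225102). TNFRSF10B fell into an upper set of OCI-AML2 (173 CPM), MV-4-11 (169 CPM), OCI-AML3 (150 CPM) and MOLM-13 (149 CPM), and the next line, F-36P, was at 75.3 CPM (adjusted p = 4.68e-14 against MOLM-13). OCI-AML2 did not differ from MV-4-11 (adjusted p = 0.653), nor OCI-AML3 from MOLM-13 (adjusted p = 0.94). THP-1 was lowest for TNFRSF10B at 19.5 ± 1.51 CPM and for TNFRSF10A at 7.01 ± 0.662 CPM, with HL-60 second lowest for both. TNFRSF10A ranged up to 43.3 ± 2.86 CPM in OCI-AML2, a 6.18-fold span against 8.90-fold for TNFRSF10B.

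TNFRSF10D, the decoy with a truncated death domain, was at 83.6 ± 3.32 CPM in MOLM-13, 76.5 CPM in NOMO-1 and 67.4 CPM in OCI-AML3. It was near 7 CPM in HL-60 (7.39 CPM), THP-1 (6.74 CPM) and F-36P (6.42 CPM), which did not differ from their neighbours, and KASUMI-1 above them was at 26.6 CPM (adjusted p = 5.75e-16 against HL-60). TNFRSF10C, the decoy held by a lipid anchor, was low throughout. It reached 3.26 ± 0.254 CPM in OCI-AML3 and 2.99 CPM in MONO-MAC-6, and in HL-60 it had 8 reads in 3 libraries.

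TNFRSF1A (chr12:6328757-6342114), the TNF receptor with a death domain, had the narrowest range. KASUMI-1 stood at 256 ± 16.1 CPM, 1.95-fold above NB-4 (adjusted p = 9.82e-14), while the other 10 lines lay between 58.9 and 131 CPM. TNFRSF1B (chr1:12166991-12209228), its counterpart without a death domain, ran from 217 ± 10.2 CPM in OCI-AML2 to 20.2 CPM in KASUMI-1. NB-4 fell outside that range, with 0.194, 0.469 and 0.920 CPM in its libraries and 30 reads in all, 412-fold below OCI-AML2. CFLAR (chr2:201116154-201176687) was highest in F-36P at 218 ± 15.1 CPM, followed by MONO-MAC-6 (141 CPM) and OCI-AML2 (128 CPM), and lowest in HL-60 at 33.5 ± 1.11 CPM.

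Levels of different genes were set against each other only per kilobase of exon, as RPKM over the merged exons of each gene. Among the 4 TRAIL receptors, TNFRSF10B had the highest RPKM in 9 of 11 untreated lines, and TNFRSF10D in the other 2, NOMO-1 and MONO-MAC-6. TNFRSF10C was the lowest in all 11. With the MANE Select transcript as length, TNFRSF10B led in 10 lines and TNFRSF10C was lowest in 10. In NB-4, TNFRSF1A stood at 32.8 RPKM and TNFRSF1B at 0.147 RPKM. TNFRSF1A was above TNFRSF1B in 7 of 11 untreated lines by merged exons and in 9 by MANE Select, since the merged exons of TNFRSF1A (4205 bases) are longer than its MANE transcript (2171 bases). FAS was not ranked against the others, because its merged exons (29313 bases) and its MANE transcript (3696 bases) differ so widely.

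Etoposide raised these genes more often than it lowered them. The genes were chosen with earlier results of these data known, and their shares beside those of all genes are not independent of that choice. A gene was called induced or repressed at an adjusted p below 0.05 and a fold change above 2, the study's thresholds, and is said to have risen or fallen at an adjusted p below 0.05 alone. Of 100 gene and line combinations in the 10 lines, 89 could be tested. Of these, 26 were induced, which is 29.2% against 11.1% of all tests in these lines, and 51 rose against a background of 27.7%. None was repressed (background 3.96%) by edgeR's quasi-likelihood test, its exact test or DESeq2, while 10 fell (background 24.4%). At an unadjusted p below 0.05, 56 were higher and 10 lower. Many of all genes reached this too, in either direction. They were 6221 of 14789 genes in THP-1 and 9347 of 13998 in MV-4-11, the lowest and highest shares of the 10 lines. In each induced combination the 3 etoposide libraries lay above the 3 untreated libraries. The call itself makes this likely, and its share over all called genes is not given here. In 4 of the 26, FAS in F-36P and KASUMI-1, TNFRSF10C in MV-4-11 and TNFRSF1B in NB-4, the filter on low counts was met only through the etoposide libraries, so that these had to differ to be tested. They are given below as values with no p. In the other 22, the untreated libraries alone met the filter.

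The induced genes were 6: FAS in 7 lines, TNFRSF10C in 7, TNFRSF10B in 4, TNFSF10 in 3, TNFRSF1B in 3 and TNFRSF10D in 2. These counts and those by line include the 4 combinations tested only through their etoposide reads. They are FAS in F-36P and KASUMI-1, TNFRSF10C in MV-4-11 and TNFRSF1B in NB-4. TNFRSF10A, TNFRSF1A and CFLAR were called in no line by edgeR's quasi-likelihood test, its exact test or DESeq2. At an unadjusted p below 0.05, TNFRSF10A was higher in 2 lines and lower in 3, TNFRSF1A higher in 1 and lower in 4, and CFLAR higher in 5 and lower in 3. By line, 4 were induced in KASUMI-1 (14.6% of all its genes tested), 4 in MV-4-11 (12.5%) and 4 in OCI-AML3 (7.18%). There were 3 in F-36P (24.3%), 3 in MOLM-13 (8.59%) and 3 in NOMO-1 (8.34%), 2 in MONO-MAC-6 (8.53%) and 2 in NB-4 (13.2%), and 1 in THP-1 (6.38%). HL-60 had 0 of 8 tested (5.34%) by both edgeR tests and by DESeq2. In it 3 were higher at an unadjusted p below 0.05, which are the 3 that rose. Of all 13210 genes tested in HL-60, 5671 had such a p in either direction.

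Counts of members that only rose or fell were read against all genes of the line, many of which did so too. In F-36P, 6 members rose and 0 fell, and of all genes 35.0% rose, 25% fell and 6.67% were repressed. In HL-60, 3 members rose and 0 fell, and of all genes 17.5% rose, 15% fell and 1.24% were repressed. In KASUMI-1, 7 members rose and 2 fell, and of all genes 31.5% rose, 28.6% fell and 6.52% were repressed. In MOLM-13, 7 members rose and 0 fell, and of all genes 28.1% rose, 28.1% fell and 3.37% were repressed. In MONO-MAC-6, 5 members rose and 3 fell, and of all genes 31.8% rose, 30.5% fell and 4.47% were repressed. These are counts, with no test of the members as a list. In MV-4-11, 6 members rose and 0 fell, and of all genes 33.5% rose, 30.4% fell and 2.63% were repressed. In NB-4, 4 members rose and 3 fell, and of all genes 31.0% rose, 28.7% fell and 4.82% were repressed. In NOMO-1, 3 members rose and 1 fell, and of all genes 28.8% rose, 23.9% fell and 4.43% were repressed. In OCI-AML3, 6 members rose and 0 fell, and of all genes 22.4% rose, 17.7% fell and 1.36% were repressed. In THP-1, 4 members rose and 1 fell, and of all genes 16.1% rose, 16.0% fell and 3.46% were repressed. In OCI-AML2, 0 members rose and 0 fell, and of all genes 0.0221% rose, 0.0% fell and 0.0% were repressed.

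**Figure D2:**
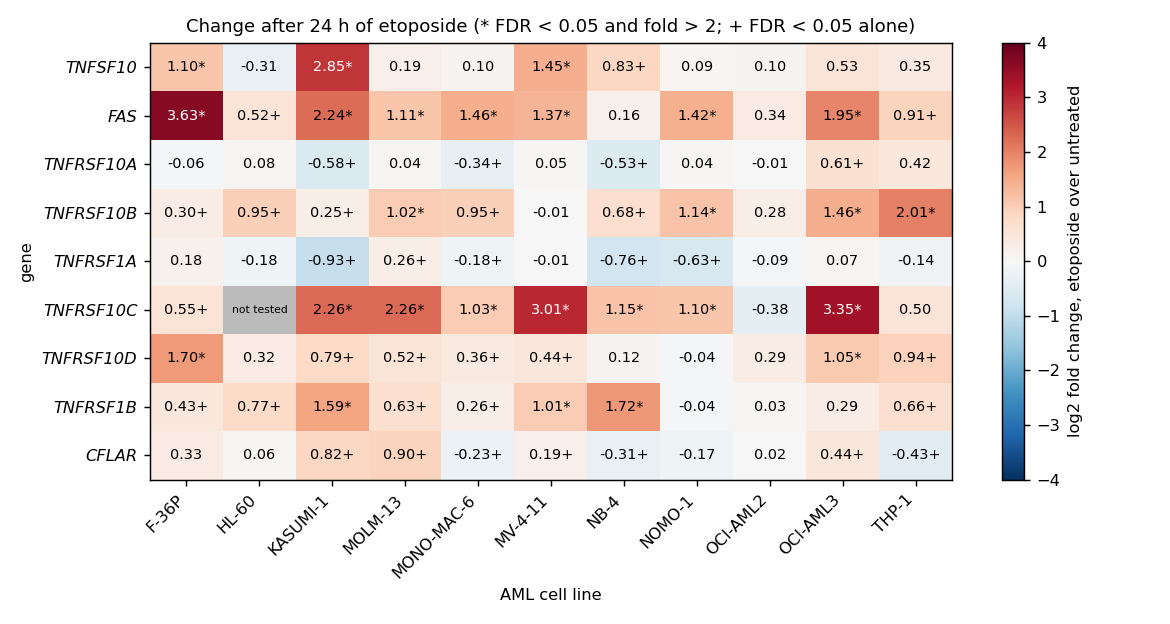
Log2 fold change of 9 genes (rows) after 24 h of etoposide in 11 AML cell lines (columns), on a color scale from -4 to 4, from the edgeR fit of each line. An asterisk marks an adjusted p below 0.05 with a fold above 2 and a plus sign an adjusted p below 0.05 alone. FAS and TNFRSF10C carry 7 asterisks each, no gene is repressed, and OCI-AML2 carries no mark. Asterisks of FAS in F-36P and KASUMI-1, TNFRSF10C in MV-4-11 and TNFRSF1B in NB-4 stand for combinations tested only through their etoposide reads.

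The scaling bears on small changes. Without TMM, on library size alone, the median log2 fold change of all genes was higher by 0.25 in F-36P, 0.21 in NB-4, 0.17 in KASUMI-1, 0.13 in MV-4-11, 0.12 in MONO-MAC-6 and 0.10 in HL-60. The sign of 5 tested combinations in these 10 lines turned with it, none of which had passed the test: TNFRSF10A in F-36P, TNFRSF10B and TNFRSF1A in MV-4-11, and TNFRSF10D and TNFRSF1B in NOMO-1.

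FAS rose in 9 of 10 lines, of which F-36P and KASUMI-1 were tested only through their etoposide reads. Here and below, CPM are normalized within a line. In OCI-AML3 the untreated libraries were at 10.97, 9.08 and 12.3 CPM and the etoposide libraries at 43.3, 46.2 and 35.9 CPM, a log2 fold change of 1.95 ± 0.14 (SE; edgeR adjusted p = 2.12e-05). In KASUMI-1 it went from 0.305, 0.315 and 0.274 CPM to 1.62, 1.05 and 1.61 CPM (log2 fold change 2.24), on 6, 6 and 5 untreated reads and 37, 22 and 35 etoposide reads. The groups did not overlap in OCI-AML3. The mean of KASUMI-1 after etoposide, 1.42 CPM, stayed below the untreated mean of each other line except F-36P.

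In F-36P, FAS held 5 reads over the untreated libraries and 77 after etoposide, a ratio of 13.2 (95% interval 5.42 to 41.8 from the counts alone), and the etoposide level was 1.24 ± 0.207 CPM. In the same etoposide libraries the summed erythroid markers were lower, and those of some other cell types were higher. T cell markers went from 2.45 to 2.61 CPM up to 11.6 to 12.3 CPM (5 of 5 with reads in both groups), epithelial markers from 29.9 to 37.04 CPM up to 103 to 132 CPM (KRT19 at 0 untreated) and fibroblast markers from 0.464 to 0.612 CPM up to 6.42 to 7.72 CPM (DCN at 0 untreated). Such rises were not confined to F-36P. T cell markers went from 6.76 to 7.46 CPM (CD3G at 0) up to 27.8 to 34.35 CPM (CD3D at 0) in KASUMI-1, while in MOLM-13 their groups overlapped. The part of these markers in the FAS change was not tested. MONO-MAC-6, NOMO-1 and MV-4-11 showed similar FAS changes, with log2 fold changes of 1.46 ± 0.09, 1.42 ± 0.15 and 1.37 ± 0.14. None of these 3 pairs differed in the test of the difference. MOLM-13 was the line with the highest untreated FAS and rose to 36.7 ± 5.52 CPM (log2 fold change 1.11); without etoposide replicate 1 that change was 1.00 and the call was lost.

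THP-1 rose from 1.56 to 2.92 CPM (log2 fold change 0.91), under the fold limit, and passed it without untreated replicate 1 (1.05) or etoposide replicate 2 (1.05). HL-60 rose by less (0.52 ± 0.14). NB-4 went from 15.2 ± 1.20 to 16.995 ± 1.35 CPM with overlapping groups (log2 fold change 0.16, adjusted p = 0.242). Over the 45 pairs of lines, 27 differed in the FAS response at an adjusted p below 0.05 over all genes and pairs, against 24.7% of all gene and pair tests.

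**Figure D3:**
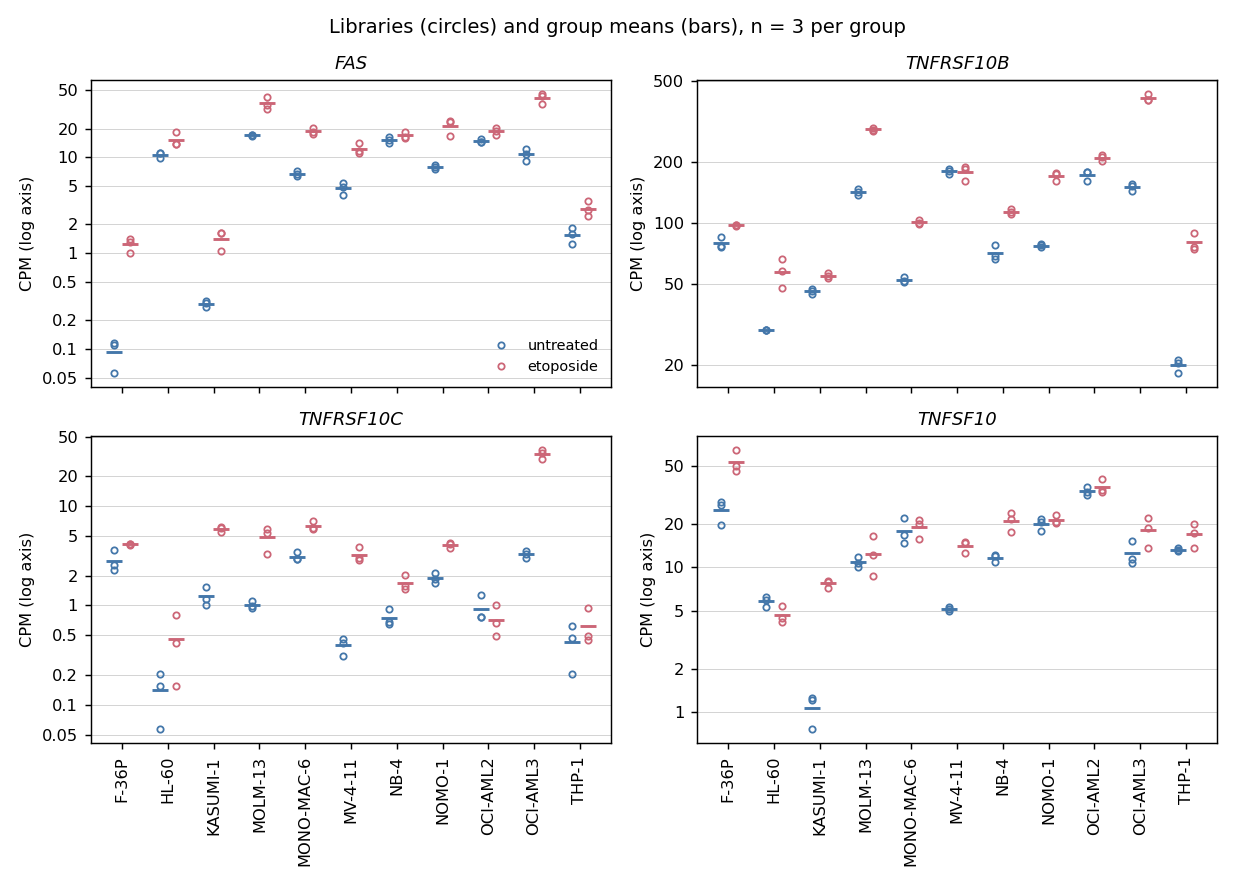
Level of FAS, TNFRSF10B, TNFRSF10C and TNFSF10 in CPM on a log axis, for 3 untreated (blue) and 3 etoposide libraries (red) of each cell line, with group means as bars. TNFRSF10C moves from 3.29 to 33.7 CPM in OCI-AML3, TNFRSF10B from 20.003 to 80.5 CPM in THP-1, and both groups of TNFRSF10B overlap in MV-4-11.

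TNFRSF10B, the TRAIL receptor with a death domain that p53 is known to raise, rose in 9 of 10 lines and was induced in 4. The largest change was in THP-1, from 21.2, 18.3 and 20.5 CPM to 76.4, 90.04 and 75.1 CPM (log2 fold change 2.01 ± 0.14, adjusted p = 4.63e-09). OCI-AML3 went from 145, 156 and 153 CPM to 404, 404 and 435 CPM (1.46 ± 0.06, adjusted p = 1.86e-06). Each etoposide library was above each untreated library in both lines, and the lowest untreated level of all lines (THP-1) and one of the highest (OCI-AML3) were among those induced.

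NOMO-1 followed with a log2 fold change of 1.14 and MOLM-13 with 1.02, the latter at the edge of the call (0.99 without untreated replicate 3). HL-60 (0.95) and MONO-MAC-6 (0.95) rose just under the limit, and HL-60 passed it without etoposide replicate 2 (1.08). In NB-4, KASUMI-1 and F-36P the rise was 0.68, 0.25 and 0.30. MV-4-11 was the exception, at 185, 180.5 and 175 CPM untreated and 186, 189 and 161 CPM after etoposide, with overlapping groups and a log2 fold change of -0.01 ± 0.06. The TNFRSF10B response differed in 35 of 45 pairs of lines, the most of the 9 genes.

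TNFRSF10A, the other TRAIL receptor with a death domain, moved little. It rose in OCI-AML3 (18.8 to 28.7 CPM, log2 fold change 0.61) and fell in KASUMI-1 (18.9 to 12.6 CPM, -0.58), NB-4 (15.7 to 10.8 CPM, -0.53) and MONO-MAC-6 (14.8 to 11.7 CPM, -0.34). In the other 6 lines its log2 fold change lay between -0.06 and 0.42 and did not pass. Exons of TNFRSF10A overlap those of TNFRSF10A-DT (14043 reads in all libraries) on the opposite strand by 266 bases, those of TNFRSF10B overlap RHOBTB2 (57009 reads) by 377 and those of FAS overlap ACTA2 (12410 reads) by 387. Whether the reads were counted by strand is not given in the sources used here, so that reads of these overlaps cannot be told apart.

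Among the decoy receptors TNFRSF10C had the largest changes. In OCI-AML3 it went from 3.00, 3.32 and 3.54 CPM to 30.02, 34.2 and 36.7 CPM, a 10.2-fold rise (log2 fold change 3.35 ± 0.12, adjusted p = 7.38e-07). In MV-4-11 it went from 0.420, 0.456 and 0.313 CPM to 2.85, 2.99 and 3.84 CPM (log2 fold change 3.01), on 8, 8 and 6 untreated reads and 70, 75 and 92 etoposide reads. The groups were far apart in OCI-AML3. MV-4-11, tested only through its etoposide reads, only reached the untreated level of OCI-AML3 after etoposide.

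KASUMI-1 (2.26) and MOLM-13 (2.26) showed close log2 fold changes in TNFRSF10C, from 1.24 to 5.91 CPM and from 1.01 to 4.86 CPM. NB-4 (1.15), NOMO-1 (1.103) and MONO-MAC-6 (1.03) were closer to the limit. The call in MONO-MAC-6 was lost without untreated replicate 1 (0.98), untreated replicate 2 (0.98) or etoposide replicate 2 (0.94). F-36P rose by 0.55 on the log2 scale and THP-1 did not pass (0.50, adjusted p = 0.416). HL-60 had 8 reads untreated and 28 after etoposide and was not tested.

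TNFRSF10D was induced in F-36P, from 6.26, 6.55 and 7.63 CPM to 21.8, 22.7 and 21.9 CPM (log2 fold change 1.70 ± 0.14, adjusted p = 6.55e-06), and in OCI-AML3, from 65.2, 69.4 and 69.1 CPM to 142, 130 and 150 CPM (1.05 ± 0.07). The groups did not overlap in either line. It rose under the limit in THP-1 (0.94), KASUMI-1 (0.79), MOLM-13 (0.52), MV-4-11 (0.44) and MONO-MAC-6 (0.36); THP-1 passed the limit without etoposide replicate 2 (1.00). NOMO-1, the line with the highest share of decoy transcripts but one, went from 85.5 ± 11.1 to 83.3 ± 10.8 CPM.

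The share of both decoys in the summed RPKM of the 4 TRAIL receptors moved in both directions. In untreated cells it ran from 11.4% ± 0.7 in F-36P to 46.5% ± 3.0 in MONO-MAC-6. In KASUMI-1 it went from 34.7% to 52.4%, in F-36P from 11.4% to 21.7%, in MV-4-11 from 18.7% to 26.1% and in OCI-AML3 from 36.8% to 39.9%, with no overlap between the groups. In NOMO-1 it went down from 45.7% to 34.7%, in THP-1 from 25.7% to 17.7% and in MOLM-13 from 37.3% to 34.1%, again with no overlap. These shares are descriptions with no test.

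The share of TNFRSF10B was higher after etoposide in 8 of 11 lines, with OCI-AML2 among the 8 (2.66 points). It went up by 22.3 percentage points in THP-1, 17.3 in NOMO-1, 11.9 in NB-4 and 11.7 in HL-60, while its change was -6.63 points in MV-4-11, -4.22 in KASUMI-1 and -0.785 in F-36P. The mean share of TNFRSF10A was lower after etoposide in all 11 lines, OCI-AML2 included. The widest steps were in THP-1 (28.3% to 14.0%) and KASUMI-1 (26.9% to 13.4%) and the narrowest in MV-4-11 (13.3% to 12.5%). This is a share of a sum, and the level of TNFRSF10A itself fell in 3 lines and rose in OCI-AML3. With MANE Select lengths the decoy share moved in the same direction in each line.

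**Figure D4:**
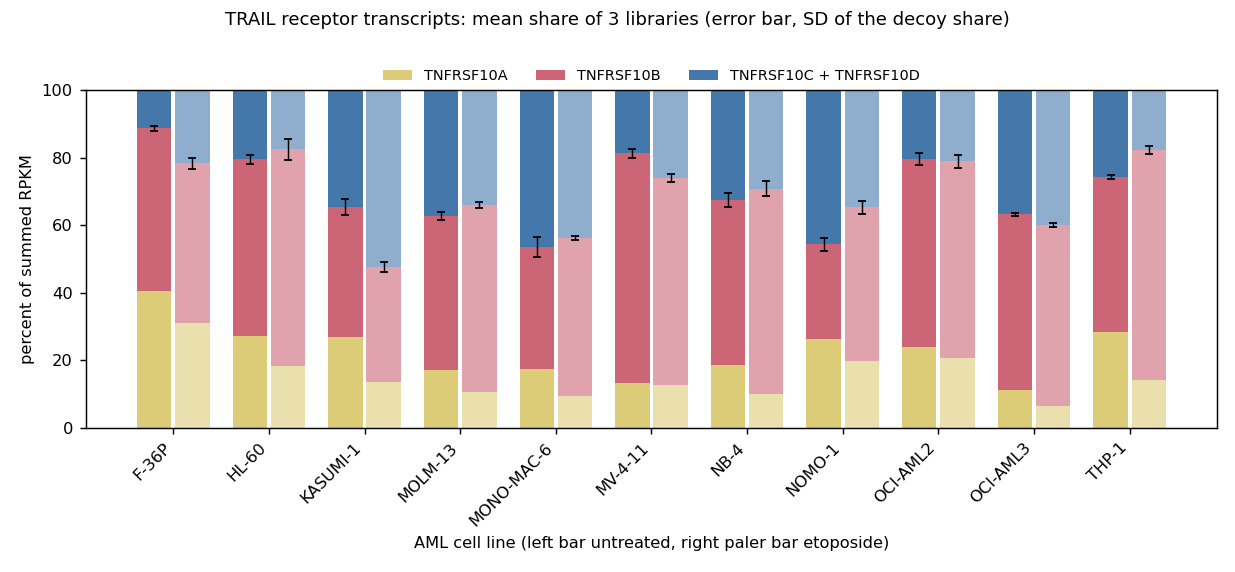
Mean share of TNFRSF10A, TNFRSF10B and both decoys (TNFRSF10C and TNFRSF10D) in the summed RPKM of the 4 TRAIL receptors, in percent, for untreated (left bar) and etoposide libraries (right, paler bar) of each line, with the SD of the decoy share over 3 libraries. The decoy share grows in KASUMI-1 from 34.7% to 52.4% and shrinks in NOMO-1 from 45.7% to 34.7%.

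TNFSF10 was induced in the line with its lowest level and in 2 others. In KASUMI-1 it went from 0.762, 1.26 and 1.21 CPM to 8.09, 7.96 and 7.22 CPM, a 7.20-fold rise (log2 fold change 2.85 ± 0.19, adjusted p = 2.04e-06). In MV-4-11 it went from 5.14, 4.96 and 5.32 CPM to 12.6, 14.9 and 14.7 CPM (1.45 ± 0.12, adjusted p = 6.56e-10). The groups were apart in both lines.

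In F-36P, TNFSF10 went from 19.5, 28.2 and 27.05 CPM to 64.4, 46.1 and 50.3 CPM (1.104 ± 0.18, adjusted p = 0.000425). That call was lost without untreated replicate 1 (0.91) or etoposide replicate 1 (0.94). NB-4 rose by 0.83 on the log2 scale. In HL-60, MOLM-13, MONO-MAC-6, NOMO-1, OCI-AML3 and THP-1 the groups overlapped and the test was not passed, with log2 fold changes of -0.31 to 0.53.

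FASLG was tested in no line. In F-36P it held 1 read untreated and 7, 3 and 1 reads after etoposide, a ratio of 9.44 whose 95% interval from the counts ran from 1.37 to 406. In NOMO-1 it held 15 and 26 reads. No other line had more than 2 reads after etoposide. In F-36P, natural killer cell markers summed to 2.26 to 2.76 CPM untreated, with 4 of 5 present and NCAM1 at 0, and to 10.0 to 12.1 CPM after etoposide with all 5 present, and their part in the FASLG reads was not tested.

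TNFRSF1A fell in 4 lines and rose in 1. It fell the most in KASUMI-1, where it was highest, from 246, 249 and 272 CPM to 128, 150 and 124 CPM (log2 fold change -0.93 ± 0.09, adjusted p = 2.13e-05). Without etoposide replicate 2 this change was -1.02 and counted as repressed. It also fell in NB-4 (138 to 81.6 CPM, -0.76), NOMO-1 (91.6 to 59.2 CPM, -0.63) and MONO-MAC-6 (61.3 to 54.1 CPM, -0.18), and rose in MOLM-13 (114 to 136 CPM, 0.26).

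The summed myeloid markers, 7 of 7 with reads in each group, moved with TNFRSF1A in these 5 lines. They went from 25666 to 29064 CPM down to 13294 to 14870 CPM in KASUMI-1, from 15648 to 18388 CPM down to 4635 to 5196 CPM in NB-4, from 3067 to 3428 CPM down to 1435 to 1789 CPM in NOMO-1 and from 5033 to 5344 CPM down to 4050 to 4471 CPM in MONO-MAC-6. In MOLM-13 they went from 2387 to 3213 CPM up to 6124 to 7054 CPM. Single markers of the list did not all follow. MPO held most of the sum in KASUMI-1 (27115 to 13145 CPM) and NB-4 (16521 to 4300.5 CPM). PTPRC was higher after etoposide in each line where TNFRSF1A fell, with 32.5 to 123 CPM in KASUMI-1 and 135 to 216 CPM in NB-4. In MOLM-13, MPO went down from 71.1 to 40.5 CPM. The summed markers were also lower after etoposide in HL-60 and higher in MV-4-11, OCI-AML3 and THP-1, where TNFRSF1A did not pass the test. Their part in the TNFRSF1A changes was not tested.

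TNFRSF1B rose in 8 of 10 lines, of which NB-4 was tested only through its etoposide reads. In KASUMI-1 it went from 18.9, 19.0 and 22.5 CPM to 56.8, 66.1 and 58.8 CPM (log2 fold change 1.59 ± 0.11, adjusted p = 2.1e-06), and in MV-4-11 from 75.0, 81.6 and 75.8 CPM to 143, 160 and 165 CPM (1.01 ± 0.06, adjusted p = 1.33e-11). The groups did not overlap, but the MV-4-11 change sat at the fold limit and was 0.98 without untreated replicate 1, 0.99 without untreated replicate 3, 0.99 without etoposide replicate 2 and 0.97 without etoposide replicate 3. In NB-4 it went from 0.203, 0.491 and 0.974 CPM to 1.61, 1.57 and 2.25 CPM (log2 fold change 1.72). This rests on 4, 9 and 17 untreated reads and 37, 34 and 49 etoposide reads, and NB-4 kept the lowest level of any line. NOMO-1 did not pass (142 to 138 CPM), nor did OCI-AML3 (81.9 to 100.3 CPM, adjusted p = 0.0674).

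Within a library, the log2 ratio of TNFRSF1B to TNFRSF1A in RPKM was higher after etoposide in all 10 lines. It went from -3.52 ± 0.06 to -0.99 ± 0.06 in KASUMI-1, from -8.07 ± 1.12 to -5.36 ± 0.26 in NB-4, and from 0.79 ± 0.07 to 1.38 ± 0.08 in NOMO-1. The ratio is a description with no test, and in NB-4 it rests on 30 untreated reads of TNFRSF1B.

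CFLAR rose in 4 lines and fell in 3, always by less than the fold limit. It rose in MOLM-13, from 88.5, 83.3 and 84.8 CPM to 177, 160 and 143 CPM (log2 fold change 0.90 ± 0.09, adjusted p = 1.55e-05), in KASUMI-1 (40.6 to 71.5 CPM, 0.82), in OCI-AML3 (73.7 to 100.1 CPM, 0.44) and in MV-4-11 (86.4 to 98.4 CPM, 0.19). It fell in THP-1, from 75.9, 74.45 and 81.3 CPM to 60.2, 53.4 and 57.9 CPM (-0.43 ± 0.12, adjusted p = 0.0106), in NB-4 (90.5 to 72.9 CPM, -0.31) and in MONO-MAC-6 (146 to 124 CPM, -0.23). F-36P, with the highest level, had overlapping groups (0.33, adjusted p = 0.0618).

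**Figure D5:**
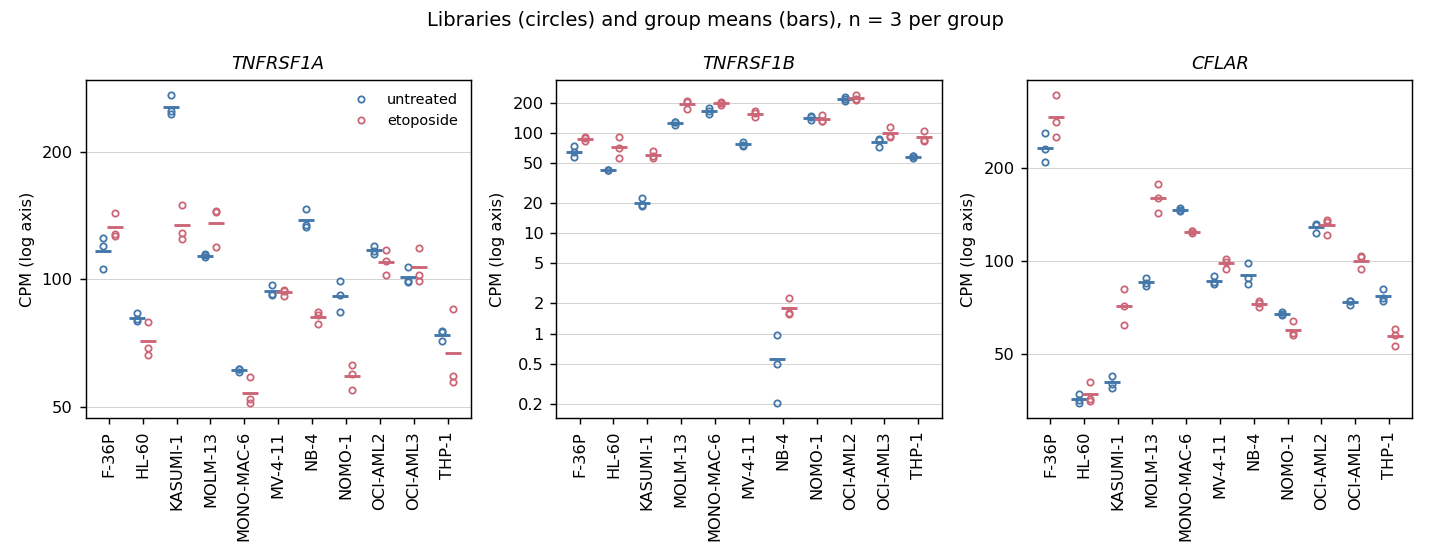
Level of TNFRSF1A, TNFRSF1B and CFLAR in CPM on a log axis, for 3 untreated (blue) and 3 etoposide libraries (red) of each cell line, with group means as bars. TNFRSF1A goes from 256 to 134 CPM in KASUMI-1, TNFRSF1B stays under 3 CPM in NB-4, and CFLAR moves up in MOLM-13 and down in THP-1.

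With the cell line as the unit, the mean log2 fold change over 10 lines was 1.48 ± 0.98 (SD) for FAS, which was higher in 10 of 10 lines (limma adjusted p = 0.00164). It was 0.87 ± 0.60 for TNFRSF10B (9 of 10 lines, adjusted p = 0.00219), 0.73 ± 0.57 for TNFRSF1B (9 of 10, 0.00401), 0.62 ± 0.51 for TNFRSF10D (9 of 10, 0.00583) and 0.72 ± 0.91 for TNFSF10 (9 of 10, 0.0313). These 5 of the 8 genes tested in all 10 lines passed as higher, against 18.4% of all genes in this test, and none passed as lower (27.6%). FAS in F-36P and KASUMI-1 and TNFRSF1B in NB-4 were tested only through their etoposide reads. The p-values of FAS and TNFRSF1B rest in part on these values. Without F-36P, TNFSF10 did not pass (mean 0.68, adjusted p = 0.0585). TNFRSF10A (mean -0.03), TNFRSF1A (-0.23) and CFLAR (0.16) did not pass. On library size alone the mean of TNFRSF10A was 0.08, so that its sign turned. The response of all 9 genes tested differed between lines (interaction test), as did that of 74.5% of all genes.

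Of the other 51 genes listed for death receptor signaling, 50 could be tested in at least 1 line. Of 417 tests, 71 (17%) were calls of induction and 5 (1.2%) of repression, beside 11.1% and 3.96% of all genes. The share induced was below that of all genes in MOLM-13 (7.14% and 8.59%), MV-4-11 (10% and 12.5%) and OCI-AML3 (2.38% and 7.18%). This list too was chosen with earlier results of these data known. It shares TRAF1, TNFAIP3 and BIRC3, induced in 7, 5 and 5 lines, with the list of NF-kB targets below. FADD, the adaptor of FAS and the TRAIL receptors, was called in no line by edgeR or DESeq2 and fell in 3, to 21.0 CPM from 28.9 CPM in KASUMI-1 at most. TRADD, the adaptor of TNFRSF1A, was called in none and rose in 4. CASP8, the initiator caspase, was called in none but rose in 8 (largest log2 fold change 0.82, in MV-4-11), and its relative CASP10 rose in 9 and was induced in KASUMI-1 (16.1 to 33.9 CPM).

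PEA15, a death effector domain protein that can bind FADD, was induced in 4 and reached 349 ± 53.2 CPM from 111 ± 8.09 CPM in THP-1. CYLD, a deubiquitinase of the TNF receptor complex, rose in all 10 lines and was induced in 4, with 38.7 to 129 CPM in NOMO-1.

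TRAF1, an adaptor of TNF receptors, was induced in 7 lines, from 0.795 to 10.8 CPM in F-36P. BIRC3, an inhibitor of apoptosis protein, was induced in 5, from 5.64 ± 0.613 to 77.3 ± 5.93 CPM in MONO-MAC-6 and from 3.504 to 63.9 ± 44.7 CPM in NOMO-1. BIRC3 in KASUMI-1 (0.0352 CPM untreated) met the filter on low counts only with etoposide libraries. TNFAIP3 (A20), a ubiquitin-editing enzyme, was induced in 5, with 33.8 to 138 CPM in HL-60, and repressed in NB-4, where the untreated level of 153 ± 61.3 CPM varied widely between libraries and the etoposide level was 63.5 ± 6.70 CPM.

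Other ligands and receptors of the superfamily moved too. TNFRSF14 was induced in 7 lines at levels under 7 CPM. Untreated F-36P (0.550 CPM) and KASUMI-1 (0.528 CPM) lay near the minimum of the filter on low counts for TNFRSF14. Its test there may have depended on the etoposide libraries. NGFR, the nerve growth factor receptor with a death domain, was induced in 6, from 0.142 to 3.16 CPM in MV-4-11 and from 0.198 to 4.33 CPM in NB-4. TNFSF14, a ligand of TNFRSF14, was induced in 4 lines (7.02 to 22.9 CPM in MONO-MAC-6). TNFSF15 was induced in the 3 lines where it could be tested (0.359 to 6.96 CPM in NOMO-1). In their called lines, NGFR (0.0169 to 0.435 CPM untreated) and TNFSF15 (0.166 to 0.359 CPM) met the filter on low counts only with etoposide libraries. TNFSF14 did so in F-36P and KASUMI-1. These combinations had to gain reads to be tested. TNF itself was induced in HL-60 alone, from 0.764 ± 0.205 to 4.25 ± 1.88 CPM, of 7 lines tested.

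Lists of known targets were counted beside these genes, without a test of the lists. The p53, NF-kB and interferon lists were chosen with earlier results of these data known. Their shares beside those of all genes are not independent of that choice. SPATA18 was tested in 1 of the 10 lines, IFI44L in 4 and CCL4 in 5, and each was induced in all of these. Shares of those tested thus leave out lines where a gene was too low. Of 85 tests of 10 p53 targets, 43.5% were calls of induction, beside 11.1% of all genes. Of those tested, 10 of 10 were induced in OCI-AML3 (beside 7.18% of all its genes), 8 of 9 in MOLM-13 (8.59%), 4 of 9 in MV-4-11 (12.5%), 4 of 9 in NOMO-1 (8.34%), 3 of 8 in KASUMI-1 (14.6%) and 3 of 9 in MONO-MAC-6 (8.53%). In F-36P 2 of 8 were induced (24.3%), in NB-4 1 of 7 (13.2%), in HL-60 1 of 7 (5.34%) and in THP-1 1 of 9 (6.38%). CDKN1A was induced in all 10 lines, and MDM2 in OCI-AML3 (108 to 653 CPM), MOLM-13 (131 to 468 CPM) and MV-4-11 (163 to 352 CPM). CDKN1A in HL-60 (0.230 CPM untreated) met the filter on low counts only with etoposide libraries. In THP-1, where TNFRSF10B rose the most, MDM2 was at 136 ± 20.5 and 140 ± 12.8 CPM. Of 93 tests of 10 NF-kB targets, 63.4% were calls of induction. Of those tested, 10 of 10 were induced in MONO-MAC-6, 9 of 10 in F-36P, 9 of 10 in HL-60, 8 of 9 in KASUMI-1, 8 of 10 in NOMO-1, 5 of 8 in MV-4-11, 4 of 10 in NB-4, 3 of 9 in THP-1, 2 of 9 in MOLM-13 and 1 of 8 in OCI-AML3, beside the same shares of all genes. NFKBIA, the feedback inhibitor of NF-kB, was induced in MONO-MAC-6 (41.8 to 167 CPM), KASUMI-1 and HL-60.

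Of 93 tests of 10 interferon-response genes, 55.9% were calls of induction, beside 11.1% of all genes. Of those tested, 10 of 10 were induced in F-36P (24.3% of all its genes), 8 of 10 in KASUMI-1 (14.6%), 8 of 10 in THP-1 (6.38%), 7 of 9 in NB-4 (13.2%), 6 of 9 in MV-4-11 (12.5%), 6 of 10 in MONO-MAC-6 (8.53%), 3 of 9 in HL-60 (5.34%), 2 of 9 in NOMO-1 (8.34%), 1 of 9 in MOLM-13 (8.59%) and 1 of 8 in OCI-AML3 (7.18%). IRF1 was induced in F-36P (19.0 to 48.5 CPM) and THP-1 (31.8 to 78.6 CPM). TNFSF10, whose promoter window holds a match to the interferon-stimulated response element core, was induced in F-36P, KASUMI-1 and MV-4-11. Of the other lines with 6 or more interferon-response genes induced, it had a log2 fold change of 0.35 in THP-1 (adjusted p = 0.0952), 0.83 in NB-4 and 0.10 in MONO-MAC-6. TNFRSF1B, whose window holds one too, had log2 fold changes of 0.43 in F-36P, 1.59 in KASUMI-1, 0.66 in THP-1, 1.72 in NB-4, 1.01 in MV-4-11 and 0.26 in MONO-MAC-6. The part of these regulators in the changes was not tested.

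In OCI-AML2 no gene of the 10 was called by edgeR or DESeq2, with 3 higher at an unadjusted p below 0.05, but neither was any other of the 13604 genes tested by edgeR (0.0%), of which 456 had an unadjusted p below 0.05 and 3 an adjusted p below 0.05. FAS was at 14.3, 14.6 and 15.5 CPM untreated and 20.2, 19.0 and 17.1 CPM after etoposide, without overlap (log2 fold change 0.34, adjusted p = 0.832). TNFRSF10B was at 178, 180 and 162 CPM and at 216, 212 and 204 CPM (0.28, adjusted p = 0.124), also without overlap.

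The genes whose pattern over lines was most like that of a member are given as a description, by Pearson's r over cell lines, with no test. For the log2 fold change over 10 lines, out of 10488 genes, FAS was most like ETFDH (r = 0.966), MOSPD2 (0.960) and STARD4 (0.938), and TNFRSF10B like RPF1 (0.953) and EIF3C (0.924). TNFSF10 was most like FCER1G (0.942), an adaptor of immune receptors, IL21R (0.940) and GASAL1 (0.918). For the untreated level over 11 lines, out of 13594 genes, TNFSF10 was most like GLIPR2 (0.9495), PTPRC (0.927), the leukocyte phosphatase CD45, and CCND3 (0.922). FAS was most like LMLN (0.940), CACNA2D4 (0.909) and ALG1 (0.906), and TNFRSF1B like ADORA2B (0.934), SHFL (0.931) and PLCB2 (0.926).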

How the data were processed

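RNA of 11 AML cell lines, untreated or after 24 h of etoposide, was sequenced in 66 poly(A) libraries made with a stranded kit. The authors aligned reads by STAR 2.5.3a (build GRCh38.p7, gencode 25 annotation) and deposited 1 table of read counts per gene and library, with no normalization. FastQC 0.11.5 and edgeR 3.20.1 are also named in the submitters' processing notes. The strand of the deposited count column is not given in the sources used here. In gencode 44, 716 genes are contained in 1 exon of a gene on the other strand, and 470 of them held reads. Gene positions and exon lengths were taken from gencode 44, a later release than that of the counts. The 45 Y copies of pseudoautosomal genes held 0 reads and were left out, which left 57992 genes.

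The members and the gene lists were chosen with earlier results of these data known. Counts were tested within each cell line with edgeR 4.0.16 (R 4.3.3) by the quasi-likelihood test after filterByExpr (minimum count 10, minimum total 15) and TMM, with Benjamini-Hochberg adjustment over all genes tested in the line. Calls needed an adjusted p below 0.05 and a fold change above 2. SEs of log2 fold changes were derived from the F statistic. Differences between lines were tested in 1 edgeR fit, and pairs of lines were adjusted over all genes and pairs. The mean response over lines was tested with limma 3.58.1. DESeq2 1.42.0 was an alternative. The scripts were tested on simulated data. Counting intervals cover counting error only.

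Named genes were the 10 members, the 10 pathway genes called in the most lines, FADD, CASP8, CASP10, TNF and TRADD, 6 genes of the p53, NF-kB and interferon lists, and the 3 genes most like a member in pattern. Some genes that this rule names are not reported here. Same-numbered libraries deviated together in all 3 pairs in NB-4 alone (lowest correlation of deviations 0.152, limit 0.1), and elsewhere shared only a number. Leaving out replicates, other filters, scalings, tests and gene lengths were tried as alternatives. MANE Select lengths were added after seeing the data.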

Additional observations from a re-analysis of the deposited data

Results flagged for a closer look

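The response to etoposide differed between the 10 cell lines for each of the 9 genes tested, by edgeR's interaction test over 60 libraries. The adjusted p was 5.52e-12 for FAS (log2 fold changes from 0.16 in NB-4 to 3.63 in F-36P), 1.14e-20 for TNFRSF10B (-0.01 in MV-4-11 to 2.01 in THP-1) and 6.2e-09 for TNFRSF10A (-0.58 in KASUMI-1 to 0.61 in OCI-AML3). For the decoys it was 1.04e-12 for TNFRSF10C and 9.11e-14 for TNFRSF10D. It was 2.53e-12 for TNFSF10, 6.41e-12 for TNFRSF1A, 5.37e-11 for TNFRSF1B and 3.04e-16 for CFLAR (-0.43 in THP-1 to 0.90 in MOLM-13). FAS in F-36P held 5 untreated reads, and its change there was tested within the line only through its etoposide reads. So were FAS in KASUMI-1, TNFRSF10C in MV-4-11 and TNFRSF1B in NB-4. The share of all genes whose response differed was 74.5%, and cell line and etoposide concentration cannot be told apart.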

How the results depend on the processing

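The 26 calls of induction became 16 when genes averaging under 5 CPM were left out, which tests fewer genes, and 51 with no minimum on the fold change. The 0 calls of repression became 10 with no minimum on the fold change. Of all tests in the 10 lines, 27.7% rose and 24.4% fell with no such minimum. For the other settings the share of all genes is not given here. Their counts thus cannot show whether the excess over all genes holds. Leaving out 1 replicate number of a group in every line gave 24 to 27 calls of induction and 0 to 1 of repression, the latter TNFRSF1A in KASUMI-1 without etoposide replicate 2. The other tests and scalings gave 25 to 29. On library size alone, TNFRSF10B passed the fold limit in HL-60 (1.06) and MONO-MAC-6 (1.06) and TNFSF10 in NB-4 (1.04), and with no filter TNFRSF10C in HL-60 had a log2 fold change of 1.67 (edgeR adjusted p = 0.0357). Of 32 single results followed through 14 settings, 416 values kept their side of the limit, 13 lost the call, 8 gained it and 0 changed sign. The remaining 11 were not tested once genes under 5 CPM were left out. With the replicate number as a block there were 26 calls of induction and 0 of repression, and all 9 responses differed between lines; the block changed no call of a member, and the numbers pair the libraries in NB-4 alone. Depth limited FASLG in all lines and FAS in untreated F-36P.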
